A study of Mus musculus with 6 samples.

Results

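A set of 8 named long noncoding RNAs (lncRNAs) was followed through 6 mouse leg tumors: Malat1, Neat1, Gas5, Miat, Rmst, Snhg1, Snhg11 and Kcnq1ot1. They were chosen by name and looked up by gene identifier in a table of 17312 genes, where 5 of the 8 have a row: Malat1, Neat1, Gas5, Snhg11 and Miat. No row of the table carries the GENCODE release 21 identifiers of Rmst, Snhg1 or Kcnq1ot1. These 3 are therefore described only through neighbouring or related genes. The 3 SS18-SSX2 tumors and the 3 SS18-SSX1 tumors came from mice with a Cre-lox inducible allele of that fusion gene, which joins a subunit of the BAF chromatin remodelling complex to an SSX protein and is the driver of synovial sarcoma. TATCre, a Cre protein that enters cells, was injected beside the shin bone of every animal, no other treatment was given, and tumors were taken about 1 year later. The protein switches the allele on in whichever cells take it up, so no cell type is selected by a promoter, and the tumor pieces also hold host cells. The labels give neither sex, strain nor age, and do not say whether the tumors of 1 genotype came from separate mice. The spread behind each p-value may therefore not be that between animals.

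Levels are FPKM, reads scaled to gene length and library size. Between genes they can be compared only roughly, since the isoforms of a gene were not separated. Between 7285844 and 17546213 reads stood behind a tumor, fewest in SS18-SSX2 tumor 2 and most in SS18-SSX1 tumor 3. All 11 synovial sarcoma markers looked for were in the table, and Tle1, a marker used in diagnosis, had 35.4, 29.8 and 37.0 FPKM in SS18-SSX2 tumors 1, 2 and 3 and 24.4, 25.7 and 23.3 FPKM in SS18-SSX1 tumors 1, 2 and 3. Both tumors numbered 2 were rich in muscle RNA, with 4313 and 9729 FPKM summed over 12 muscle fibre genes against 94.7 to 396 in the other 4. SS18-SSX1 tumor 3 was rich in mast cell RNA, with 2528 FPKM summed over 8 mast cell genes against 13.8 to 105 in the other 5. Xist, the RNA that coats the inactive X chromosome in female cells, had 175, 56.3 and 77.5 FPKM in SS18-SSX2 tumors and 7.03, 3.73 and 3.58 FPKM in SS18-SSX1 tumors. The Y-linked helicase gene Ddx3y had 0.0148, 0 and 0 FPKM in SS18-SSX2 tumors and 35.1, 28.2 and 35.2 FPKM in SS18-SSX1 tumors. This sex-linked pattern followed the genotype in all 6 tumors, so the pair cannot be told apart in any comparison given here.

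Long noncoding RNAs act as RNA rather than through a protein product. Malat1 is an abundant nuclear RNA of speckles, the bodies where splicing factors gather, and Neat1 is the scaffold around which paraspeckles are built. Gas5, Snhg1 and Snhg11 are host genes whose introns carry small nucleolar RNAs (snoRNAs), which guide chemical marks onto ribosomal RNA. Miat and Rmst are best known from neural cells, and Kcnq1ot1 is an imprinted antisense RNA that silences a group of neighbouring genes on the paternal chromosome.

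Malat1 and Neat1 are neighbours on the minus strand of chromosome 19, 22035 bases apart, and share an element that replaces a poly(A) tail. At their 3′ ends a pair of U-rich stretches folds onto an A-rich stretch into a triple helix that protects the RNA. The element is shown because it sets these transcripts apart from the other RNAs described here. It is given as DNA letters of the RNA strand from GENCODE release 21 on GRCm38 (mm10), and capitals mark the runs of at least 10 bases that both RNAs share letter for letter. For Malat1 it covers chr19:5795982-5796071 on the minus strand, bases 6602 to 6691 of a transcript of 6983, and for Neat1 it covers chr19:5824708-5824803 on the minus strand, bases 20676 to 20771 of 20771.
Malat1: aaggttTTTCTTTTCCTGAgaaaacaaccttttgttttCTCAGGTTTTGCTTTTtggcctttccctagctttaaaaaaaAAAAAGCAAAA
Neat1: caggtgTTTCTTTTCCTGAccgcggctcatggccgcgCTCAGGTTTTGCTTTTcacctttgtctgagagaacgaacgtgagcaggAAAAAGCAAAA
The shared runs TTTCTTTTCCTGA and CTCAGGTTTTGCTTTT hold the U-rich stretches, each with 1 side of a stem between them, and AAAAAGCAAAA holds the A-rich stretch. Searched on the RNA strand, all 3 runs lay together, the first 2 within 120 bases before the third, in 2 of 13374 lncRNA genes (0.0150%). Those were Malat1 and Neat1 themselves, from which the letters were taken.

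Miat carries repeated copies of ACTAAC, the core of the sequence that the splicing factor Sf1 and the RNA-binding protein Qk recognise, and the stretch below is shown because 4 copies lie close together in it. It covers chr5:112217311-112217457 on the minus strand of GRCm38, bases 4531 to 4677 of a transcript of 8758, with the copies in capitals.
Miat: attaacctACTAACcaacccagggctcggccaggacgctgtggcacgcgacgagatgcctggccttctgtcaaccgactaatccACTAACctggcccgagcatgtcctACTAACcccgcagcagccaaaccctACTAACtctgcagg
The whole transcript had 11 copies, 1.26 per kilobase on the RNA strand. Of 7502 lncRNA genes with a transcript of at least 1000 bases, 52 (0.693%) had as many copies per kilobase and 4 (0.0533%) had at least 11 copies.

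Gas5 belongs to the RNAs that begin with a C followed by pyrimidines, the kind of start that ties ribosomal protein and snoRNA host RNAs to cell growth signals. Its start window, the last by position in RefSeq, is shown for that start, and 1 of its snoRNAs, Snord47, for the boxes that mark the class. The marked start lies inside the gene as GENCODE release 21 places it, from chr1:161034422. The window covers chr1:161035116-161035205 on the plus strand, from RefSeq on GRCm38.p6, with the first 5 transcribed bases in capitals, and Snord47 covers chr1:161038082-161038158 on the plus strand, from GENCODE release 21 on GRCm38, with its C box TGATGA and D box CTGA in capitals.
Gas5: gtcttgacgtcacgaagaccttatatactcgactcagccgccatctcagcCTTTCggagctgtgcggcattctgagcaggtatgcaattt
Snord47: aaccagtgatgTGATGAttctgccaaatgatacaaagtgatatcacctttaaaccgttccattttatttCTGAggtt
Of 32851 RefSeq start windows of this length, 823 (2.51%) began with a C and 4 further pyrimidines, and 45 (0.137%) began with CTTTC.

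Malat1 was by far the most abundant of the 5 RNAs. Its gene (ENSMUSG00000092341, chr19:5795690-5802672, minus strand) has a single exon of 6983 bases. It had 1684, 1156 and 1321 FPKM in SS18-SSX2 tumors 1, 2 and 3 and 2464, 1304 and 386 FPKM in SS18-SSX1 tumors 1, 2 and 3. Both the highest and the lowest value belonged to SS18-SSX1 tumors, and the SS18-SSX2 values lay between them. Malat1 took 1.18%, 0.807% and 0.923% of all reads in SS18-SSX2 tumors and 1.72%, 0.911% and 0.270% in SS18-SSX1 tumors. By its mean level it ranked 14 among the 13873 genes that were tested, those with at least 1 FPKM in at least 3 tumors. It averaged 1387 ± 270 FPKM in SS18-SSX2 tumors and 1385 ± 1041 FPKM in SS18-SSX1 tumors (SD, n = 3 each). As a log2 fold change, which here and below is the genotype difference (SS18-SSX2 over SS18-SSX1) in log2(FPKM + 1), it stood at 0.35 (SE 0.93), and limma's moderated test gave an adjusted p of 0.997. The unadjusted 95% interval, from -1.81 to 2.51, left room for large differences in either direction, and the sign of the estimate hung on SS18-SSX1 tumor 3, without which it was -0.39. In whole tumors, fewer cells that express a gene and less of its RNA per cell cannot be told apart.

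Neat1 was the only one of the 5 RNAs whose genotypes did not overlap. Its gene (ENSMUSG00000092274, chr19:5824708-5845478, minus strand) is annotated as a single exon of 20771 bases, so the short isoform and the long paraspeckle-forming isoform were not separated. It had 43.3, 34.8 and 29.2 FPKM in SS18-SSX2 tumors 1, 2 and 3 and 18.4, 21.6 and 6.16 FPKM in SS18-SSX1 tumors 1, 2 and 3. Every SS18-SSX2 value was above every SS18-SSX1 value, and SS18-SSX1 tumor 3 was again the lowest. The means were 35.8 ± 7.07 FPKM in SS18-SSX2 tumors and 15.4 ± 8.13 FPKM in SS18-SSX1 tumors (SD, n = 3 each), a ratio of 2.33. With limma the log2 fold change was 1.31 (SE 0.44), with an unadjusted p of 0.0186, the 314th smallest of 13873, and an adjusted p of 0.810. Neat1 therefore did not pass the threshold of 0.05 over all tested genes. Groups without overlap were found for 8.72% of all tested genes, 4.97% with SS18-SSX2 higher and 3.76% with it lower, and against that background 1 of 5 RNAs is a description only. Reads behind Neat1 ran from 5263 to 13062 in SS18-SSX2 tumors and from 2246 to 6166 in SS18-SSX1 tumors, which puts the counting error of each value at 2.11% or less. Without SS18-SSX1 tumor 3 the log2 fold change was 0.80 (SE 0.27, limma adjusted p = 0.688).

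**Figure D1:**
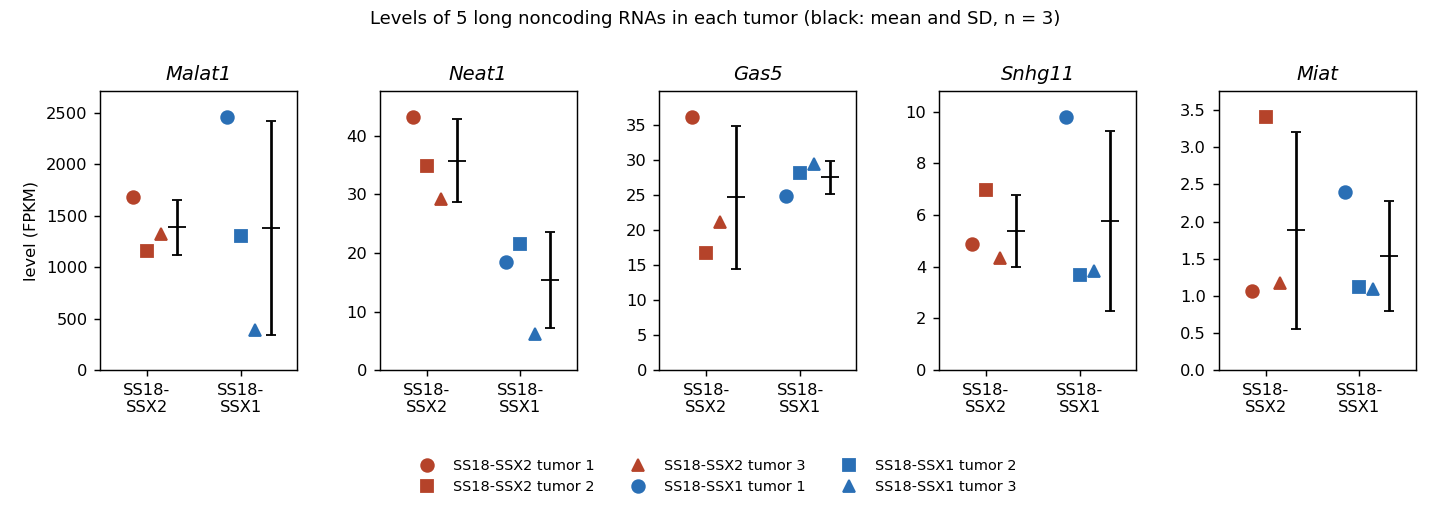
Levels in FPKM (vertical axes, each from 0) of Malat1, Neat1, Gas5, Snhg11 and Miat, with 1 point per tumor, SS18-SSX2 in red and SS18-SSX1 in blue, and black bars for the mean and SD of 3 tumors. Only for Neat1 do all SS18-SSX2 points, from 29.2 to 43.3 FPKM, lie above all SS18-SSX1 points, from 6.16 to 21.6 FPKM.

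None of the 5 RNAs passed the test, against 9 of all 13873 genes (0.0649%). Of those, 6 (0.0432% of all) were higher and 3 (0.0216%) lower in SS18-SSX2 tumors. The lower ones were the Y-linked genes Ddx3y, Uty and Kdm5d, and Xist was among the higher ones. With limma 689 genes (4.97%), Neat1 among them, had an unadjusted p under 0.05, and 3.26% did so with SS18-SSX2 higher. The intervals of the 5 differences were unequal in width, since the tumors of 1 genotype spread far more for some RNAs than for others.

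**Figure D2:**
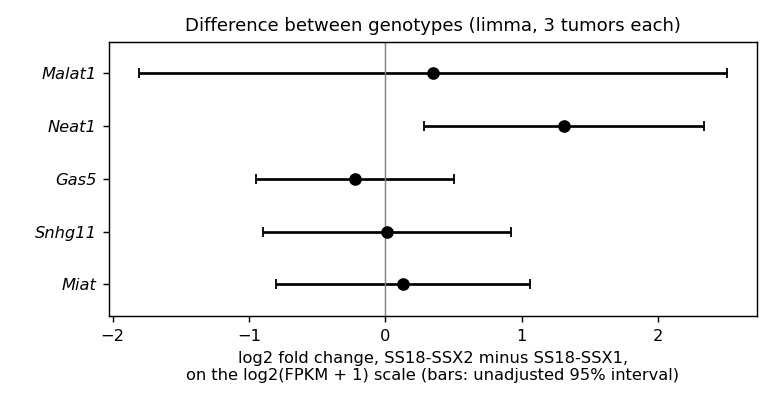
Log2 fold change of each RNA in log2(FPKM + 1), SS18-SSX2 over SS18-SSX1 (horizontal axis), with the unadjusted 95% interval from limma as bars. The interval of Neat1, 0.29 to 2.34, lies to the right of 0 and the other 4 cross it, the widest being that of Malat1.

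Neat1 was also read relative to Malat1, a ratio within 1 library that a single scaling factor per library cannot move. Neat1 reached 2.57%, 3.01% and 2.21% of the Malat1 level in SS18-SSX2 tumors 1, 2 and 3 and 0.746%, 1.65% and 1.596% in SS18-SSX1 tumors 1, 2 and 3. All SS18-SSX2 ratios were above all SS18-SSX1 ratios, and SS18-SSX1 tumor 3 was no longer the lowest. The mean log2 ratio was -5.28 ± 0.22 in SS18-SSX2 tumors and -6.32 ± 0.65 in SS18-SSX1 tumors (SD, n = 3 each). The difference of 1.04, a 2.06-fold higher ratio in SS18-SSX2 tumors, had a two-sided exact permutation p of 0.1, the smallest that 20 relabelings of 3 against 3 tumors can give, so this design could not reach 0.05. Without SS18-SSX1 tumor 1, whose ratio was the lowest, the difference was 0.67. Quantile normalization, which reshapes the values within a library, gave a difference of 0.70 with an exact permutation p of 0.6, so the separation of the genotypes was lost there.

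**Figure D3:**
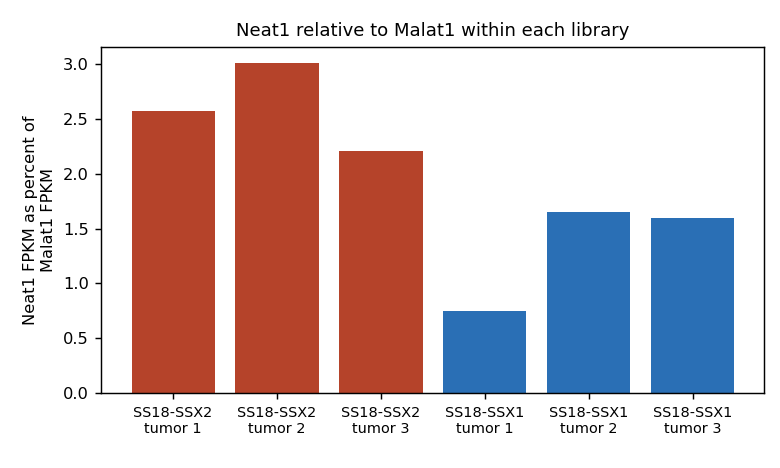
Neat1 FPKM as a percent of Malat1 FPKM (vertical axis, from 0) in each tumor, with SS18-SSX2 tumors in red on the left and SS18-SSX1 tumors in blue on the right. The red bars stand between 2.21% and 3.01%, and the blue bars between 0.746% and 1.65%.

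Frmd8, the gene 4223 bases beyond Neat1, known for its part in the release of growth factors from the cell surface, did not share the Neat1 pattern. It had 7.30, 14.6 and 11.6 FPKM in SS18-SSX2 tumors and 7.65, 11.005 and 6.99 FPKM in SS18-SSX1 tumors, and the genotypes overlapped.

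The genes of all 17 paraspeckle proteins of the list used were tested by their RNA and none passed. There were 11 estimates above 0 and 6 below, and a median log2 fold change of 0.07 beside 0.01 over all tested genes. Sfpq and Nono, the core pair of proteins that binds Neat1, differed by 0.24 (SE 0.41) and 0.21 (SE 0.30) on the log2 scale, with limma adjusted p-values of 0.997 for both. Their tumor-by-tumor order was also unlike that of Neat1. Sfpq had 83.5, 36.8 and 66.4 FPKM in SS18-SSX2 tumors and 78.5, 41.6 and 37.6 FPKM in SS18-SSX1 tumors. Matr3, a nuclear matrix protein and the most abundant of the list, had 101, 92.1 and 80.7 FPKM in SS18-SSX2 tumors and 105, 85.9 and 137 FPKM in SS18-SSX1 tumors. Smarca4, the BAF ATPase that has also been found in paraspeckles, was the 1 gene of the 17 without overlap, beside 8.72% of all tested genes. It had 49.8, 37.9 and 57.9 FPKM in SS18-SSX2 tumors and 36.5, 20.99 and 24.4 FPKM in SS18-SSX1 tumors (log2 fold change 0.83, SE 0.30, limma adjusted p = 0.844).

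The genes of the speckle and splicing proteins that surround Malat1 showed no called difference in RNA either. Of 20 listed, 19 were tested, with 8 estimates above 0, 11 below and a median of -0.06. Srrm2, a scaffold of speckles, had 105, 97.4 and 118 FPKM in SS18-SSX2 tumors and 127, 98.9 and 61.5 FPKM in SS18-SSX1 tumors, so SS18-SSX1 tumors 1 and 3 were its highest and lowest, as they were for Malat1. Srsf2, a splicing factor used to stain speckles, was the only one of the 19 without overlap, beside 8.72% of all tested genes. It had 56.0, 51.3 and 53.8 FPKM in SS18-SSX2 tumors and 71.7, 62.1 and 66.5 FPKM in SS18-SSX1 tumors (log2 fold change -0.31, SE 0.24, limma adjusted p = 0.997).

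Gas5 was about as abundant as Neat1 per length of annotated exons. Its gene (ENSMUSG00000053332, chr1:161034422-161038539, plus strand) has annotated exons over 3760 bases, retained introns included, and overlaps the antisense gene Zbtb37 by 428 bases. Whether counting used strand is not stated, so reads of that stretch may belong to either gene. Gas5 had 36.2, 16.7 and 21.1 FPKM in SS18-SSX2 tumors 1, 2 and 3 and 24.9, 28.2 and 29.5 FPKM in SS18-SSX1 tumors 1, 2 and 3. The SS18-SSX1 values were close together and lay inside the wider SS18-SSX2 range, whose lowest value came from the shallowest library, with 457 reads. The means were 24.7 ± 10.2 FPKM in SS18-SSX2 tumors and 27.5 ± 2.37 FPKM in SS18-SSX1 tumors (SD, n = 3 each), and the log2 fold change was -0.22 (SE 0.31, limma adjusted p = 0.997, unadjusted 95% interval -0.95 to 0.51). Without SS18-SSX2 tumor 2 the difference was 0.01.

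The 9 snoRNA genes inside Gas5 were all tested, with 4 estimates above 0 and 5 below, a median log2 fold change of -0.05, no unadjusted p under 0.05 and no gene without overlap. Summed over the 9, the level was 273, 105 and 148 FPKM in SS18-SSX2 tumors and 264, 148 and 115 FPKM in SS18-SSX1 tumors. Tumor 1 had the largest sum in each genotype, whereas for Gas5 itself it was the highest of the SS18-SSX2 tumors and the lowest of the SS18-SSX1 tumors. Snord47, whose sequence is given above, had 16.98, 16.04 and 9.05 FPKM in SS18-SSX2 tumors and 7.80, 5.66 and 10.4 FPKM in SS18-SSX1 tumors (log2 fold change 0.74, SE 0.33, limma adjusted p = 0.997). Snord78, the most abundant snoRNA of Gas5, had 58.4, 16.6 and 18.995 FPKM in SS18-SSX2 tumors and 75.1, 37.4 and 20.7 FPKM in SS18-SSX1 tumors. The genotypes overlapped for both of these snoRNAs. Genes of under 100 bases are shorter than most library fragments. Reads of a retained Gas5 intron also fall on them, so these values mix mature snoRNA with its host. The 9 genes are 60 to 84 bases long, so few reads stand behind most of their values.

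**Figure D4:**
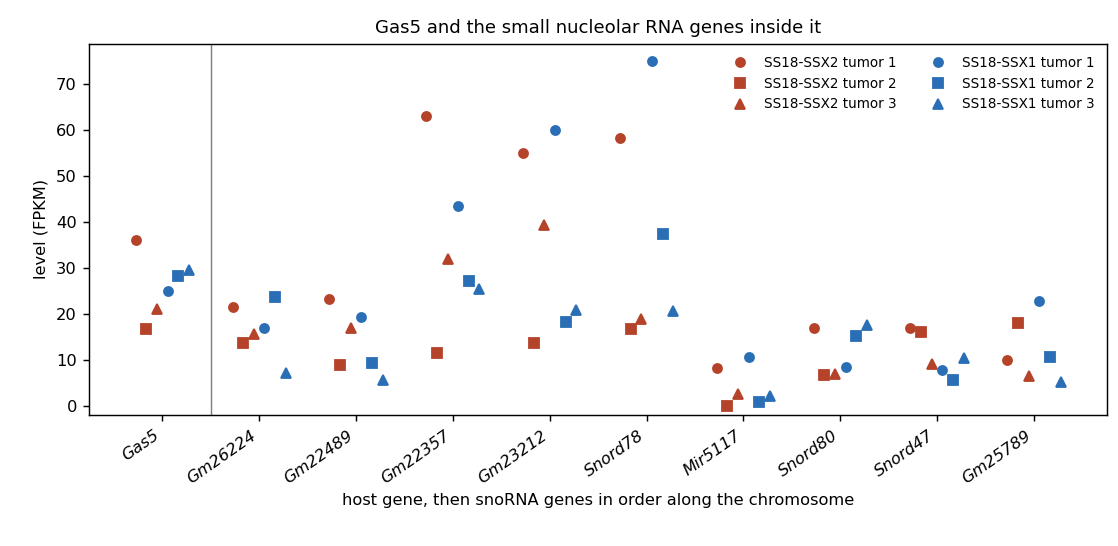
Level in FPKM (vertical axis) of Gas5, at the left, and of the 9 snoRNA genes inside it, in order along the chromosome, with 1 point per tumor, SS18-SSX2 in red and SS18-SSX1 in blue. The red and blue points overlap for Gas5 and for each of the 9 snoRNA genes.

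Snhg11 was present at a low level. Its gene (ENSMUSG00000044349, chr2:158375638-158386145, plus strand), a snoRNA host best known from neurons, is typed as protein coding in GENCODE release 21 although it is described as noncoding. It had 4.89, 6.97 and 4.33 FPKM in SS18-SSX2 tumors 1, 2 and 3 and 9.81, 3.67 and 3.85 FPKM in SS18-SSX1 tumors 1, 2 and 3. SS18-SSX1 tumor 1 was the highest, and the other SS18-SSX1 tumors were below all SS18-SSX2 tumors. The means were 5.40 ± 1.39 FPKM in SS18-SSX2 tumors and 5.78 ± 3.49 FPKM in SS18-SSX1 tumors (SD, n = 3 each), with a log2 fold change of 0.01 (SE 0.39, limma adjusted p = 0.999, unadjusted 95% interval -0.90 to 0.92). Leaving out 1 tumor at a time moved it between -0.20 and 0.41.

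Snhg1 (chr19:8723475-8726443, plus strand) is represented here by 6 snoRNA genes inside it, and all 6 estimates were below 0. Their median log2 fold change was -0.50, 1 of the 6 had an unadjusted p under 0.05, the smallest limma adjusted p was 0.958, and no gene was without overlap. The sums were 72.6, 256 and 198 FPKM in SS18-SSX2 tumors and 182, 420 and 129 FPKM in SS18-SSX1 tumors. Most of each sum but that of SS18-SSX2 tumor 1 came from Snord22, with 32.2, 228 and 168 FPKM in SS18-SSX2 tumors and 110, 375 and 96.8 FPKM in SS18-SSX1 tumors. The 6 genes lie in 1 transcript, so they are not independent of each other. Those other than Snord22 are 65 to 76 bases long, so few reads stand behind their values. The gene with an unadjusted limma p under 0.05, Gm24452, had 0 and 0.967 FPKM in SS18-SSX2 tumors 2 and 3.

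Among 25 other snoRNA host genes, 17 were tested and none passed, with 7 estimates above 0, 10 below and a median log2 fold change of -0.12. Of the 17, 2 had no overlap, both lower in SS18-SSX2 tumors, beside 3.76% of all tested genes in that direction. Snhg18 had the smallest p of them and did not overlap, with 9.66, 11.4 and 10.6 FPKM in SS18-SSX2 tumors and 20.6, 31.7 and 17.9 FPKM in SS18-SSX1 tumors (log2 fold change -1.04, SE 0.28, limma adjusted p = 0.593). Eif4a2, a translation initiation factor gene that hosts snoRNAs, did not overlap either, with 38.0, 49.5 and 27.1 FPKM in SS18-SSX2 tumors and 56.3, 50.7 and 71.0 FPKM in SS18-SSX1 tumors (log2 fold change -0.65, SE 0.30, limma adjusted p = 0.997). Snhg3 spread most, with 131, 2174 and 573 FPKM in SS18-SSX2 tumors and 96.6, 1036 and 849 FPKM in SS18-SSX1 tumors. For Snhg3 both tumors 1 were low whatever the genotype.

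Miat was the least abundant of the 5 RNAs. Its gene (ENSMUSG00000097767, chr5:112213228-112229395, minus strand) has annotated exons over 9293 bases. It had 1.06, 3.41 and 1.18 FPKM in SS18-SSX2 tumors 1, 2 and 3 and 2.39, 1.12 and 1.098 FPKM in SS18-SSX1 tumors 1, 2 and 3. In each genotype 1 tumor stood above the other 2, and it was not the same number. The means were 1.88 ± 1.33 FPKM in SS18-SSX2 tumors and 1.54 ± 0.742 FPKM in SS18-SSX1 tumors (SD, n = 3 each), with a log2 fold change of 0.13 (SE 0.40, limma adjusted p = 0.997, unadjusted 95% interval -0.80 to 1.06). Between 143 and 296 reads stood behind a value, a counting error of 5.81% to 8.36%, and the values spanned a 3.22-fold range. Without SS18-SSX2 tumor 2 the difference was -0.22. That tumor also had the highest level of lymphocyte genes, with 744 FPKM summed over 8 genes, of which Igkc alone gave 671. The sums were 6.74 and 5.95 FPKM in SS18-SSX2 tumors 1 and 3. They were 3.58, 83.6 and 9.11 FPKM in SS18-SSX1 tumors 1, 2 and 3, lowest in tumor 1, the next highest for Miat. Macrophage genes were highest in SS18-SSX2 tumor 2 as well, with 566 FPKM summed over 8 genes. The part of either cell type in the Miat value was not tested. Of the proteins that bind ACTAAC repeats, Qk had 38.3, 22.0 and 21.6 FPKM in SS18-SSX2 tumors and 31.995, 25.95 and 29.1 FPKM in SS18-SSX1 tumors. Sf1 had 26.3, 22.5 and 30.1 FPKM in SS18-SSX2 tumors and 30.4, 24.4 and 14.1 FPKM in SS18-SSX1 tumors. The genotypes overlapped for the RNA of both, and protein was not measured.

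Rmst (chr10:92071037-92165170, minus strand) is known in human neural stem cells as a partner of SOX2. A list of neural genes, which are not its chromosomal neighbours, was therefore read. These genes do not give the level of Rmst itself. Of 20 listed, 9 were tested and none passed, with 6 estimates above 0 and 3 below. Without overlap were 2 with SS18-SSX2 higher and 1 with it lower, beside 4.97% and 3.76% of all tested genes. Sox2 had 20.1, 9.55 and 21.3 FPKM in SS18-SSX2 tumors and 40.7, 38.5 and 31.1 FPKM in SS18-SSX1 tumors, without overlap (log2 fold change -1.14, SE 0.34, limma adjusted p = 0.681). Sox3, a close X-linked relative of Sox2, differed the other way, also without overlap. It had 8.62, 5.73 and 19.97 FPKM in SS18-SSX2 tumors and 0.401, 4.55 and 0.0277 FPKM in SS18-SSX1 tumors (log2 fold change 2.47, SE 0.69, limma adjusted p = 0.632). Neither gene passed the threshold. Map2, a microtubule protein gene of neurons, was the other tested gene without overlap, with 18.4, 3.94 and 11.2 FPKM in SS18-SSX2 tumors and 2.89, 2.98 and 2.075 FPKM in SS18-SSX1 tumors (log2 fold change 1.54, SE 0.49, limma adjusted p = 0.786). Other genes of mature neurons differed in level, with at most 0.539 FPKM for the nuclear marker Rbfox3 and 0.127 FPKM for the RNA-binding protein gene Elavl4 in any tumor, but up to 21.2 FPKM for the cytoskeletal gene Stmn2.

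Kcnq1ot1 (chr7:143203458-143296549, minus strand) lies wholly within Kcnq1, on the opposite strand, so reads of the RNA may have been counted to the channel gene. Kcnq1 had 1.41, 2.54 and 1.47 FPKM in SS18-SSX2 tumors and 1.76, 0.216 and 2.95 FPKM in SS18-SSX1 tumors. Cdkn1c, a cell cycle inhibitor silenced by Kcnq1ot1 on the paternal chromosome, had 39.4, 53.3 and 58.7 FPKM in SS18-SSX2 tumors and 20.2, 63.6 and 65.7 FPKM in SS18-SSX1 tumors. It overlapped between genotypes and was lowest in SS18-SSX1 tumor 1 (log2 fold change 0.17, SE 0.46, limma adjusted p = 0.997). Of 13 genes listed for the imprinted domain, 8 were tested, none passed and none was without overlap, and their median log2 fold change was 0.11.

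Other known lncRNAs were set beside these 5. Of 38 other known lncRNAs, 18 were tested, with 7 estimates above 0, 11 below and a median log2 fold change of -0.28. Xist was the only one that passed (log2 fold change 4.05, SE 0.45, limma adjusted p = 0.0413), higher in SS18-SSX2 tumors, and its pattern was that of the sex-linked genes. It missed the threshold in 12 of 18 alternatives, with limma adjusted p-values from 0.0249 to 0.238 over them. Hotair, an antisense RNA of the HoxC cluster, had 1.61, 0.153 and 0.801 FPKM in SS18-SSX2 tumors and 11.2, 5.09 and 3.09 FPKM in SS18-SSX1 tumors, without overlap (log2 fold change -1.94, SE 0.49, limma adjusted p = 0.578). Cep83os, a divergent transcript beside Cep83 of unknown role, had the smallest p of those lower in SS18-SSX2 tumors and no overlap, with 0.599, 1.93 and 0.219 FPKM in SS18-SSX2 tumors and 5.45, 3.13 and 8.38 FPKM in SS18-SSX1 tumors (log2 fold change -1.82, SE 0.45, limma adjusted p = 0.566). Hotairm1 of the HoxA cluster was the third without overlap in this direction, with 1.01, 1.47 and 0.476 FPKM in SS18-SSX2 tumors and 5.64, 4.11 and 1.78 FPKM in SS18-SSX1 tumors (log2 fold change -1.23, SE 0.41, limma adjusted p = 0.809). All 3 estimates lay opposite in sign to that of Neat1, and none passed. These were 3 of the 18 tested, beside 3.76% of all tested genes without overlap and lower in SS18-SSX2 tumors. Tug1, a widely expressed lncRNA, had 27.4, 15.7 and 15.7 FPKM in SS18-SSX2 tumors and 23.5, 15.2 and 18.6 FPKM in SS18-SSX1 tumors, a level close to those of Neat1 and Gas5 with no separation of the genotypes.

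Low values in SS18-SSX1 tumor 3 were shared with several lncRNAs. Meg3, a maternally expressed imprinted lncRNA, had 15.1, 18.7 and 16.9 FPKM in SS18-SSX2 tumors and 24.6, 12.998 and 0.299 FPKM in SS18-SSX1 tumors. Rian, of the same imprinted cluster, had 38.3, 29.5 and 27.9 FPKM in SS18-SSX2 tumors and 32.8, 21.5 and 3.79 FPKM in SS18-SSX1 tumors. Firre, an X-linked lncRNA that shapes nuclear organisation, had 17.4, 29.0 and 27.5 FPKM in SS18-SSX2 tumors and 28.7, 23.4 and 4.95 FPKM in SS18-SSX1 tumors. In all 3, as in Malat1 and Neat1, SS18-SSX1 tumor 3 was the lowest of the 6 tumors. Dlk1 and Rtl1, coding genes near Meg3 on chromosome 12, were highest in that tumor instead. They had 125 and 42.5 FPKM there, against at most 33.8 and 12.8 FPKM in any other tumor. The same tumor held the lowest value for 145 of 461 tested lncRNA genes (31.5%), for 2631 of 12468 protein-coding genes (21.1%) and for 2 of the 5 RNAs, Malat1 and Neat1. It was the deepest library and, as given above, the one rich in mast cell RNA, and the part of either in these values was not tested. The mast cell genes were all in the table, none was at 0 in any tumor, and all 8 estimates were below 0. Of the 12 genes listed with the imprinted lncRNAs, 9 were tested and none passed, with 6 estimates above 0, 3 below and a median log2 fold change of 0.90. H19, an imprinted lncRNA linked to growth, was high in the muscle-rich tumors numbered 2 instead, with 4.70, 172 and 3.99 FPKM in SS18-SSX2 tumors and 1.42, 108 and 1.85 FPKM in SS18-SSX1 tumors.

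**Figure D5:**
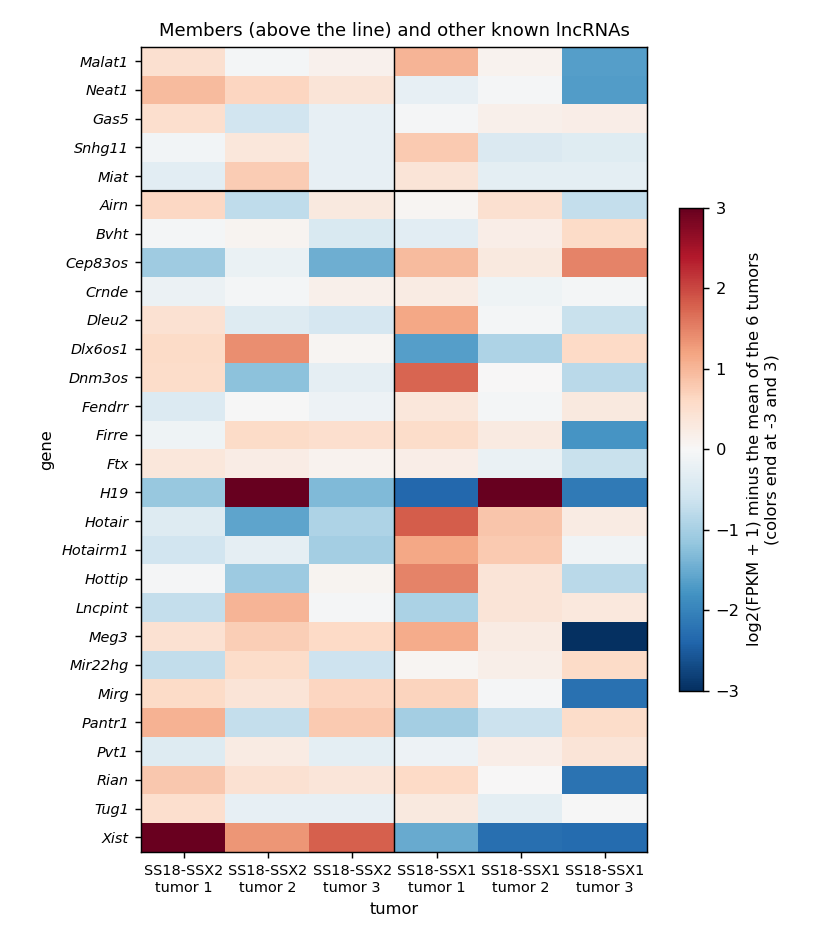
Level of 28 lncRNAs in each tumor as log2(FPKM + 1) minus the mean of the 6 tumors (color, ending at -3 and 3), with SS18-SSX2 tumors in the left columns and SS18-SSX1 tumors in the right ones. Malat1, Neat1, Meg3, Rian, Mirg and Firre are darkest blue in SS18-SSX1 tumor 3, and Xist is red in all SS18-SSX2 tumors and blue in all SS18-SSX1 tumors.

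The 5 RNAs differed in how far they varied between tumors. The SD over 6 tumors on the log2 scale was 0.90 for Malat1 and 0.93 for Neat1, larger than that of 90.4% and 91.3% of tested genes. It was 0.38 for Gas5, 0.47 for Snhg11 and 0.47 for Miat, against a median of 0.41 over all tested genes and 0.46 over tested lncRNAs. For Malat1 most of it lay among the SS18-SSX1 tumors, where the SD was 1.36, against 0.27 among SS18-SSX2 tumors. Gas5 had the opposite spread, with an SD of 0.55 among SS18-SSX2 tumors and 0.12 among SS18-SSX1 tumors.

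Profiles were compared over the 6 tumors by the root mean square difference between centred log2 values, which is 0 for identical profiles. The closest to Neat1 were Amot, an X-linked angiomotin gene of the Hippo pathway, at 0.155 and Tgfb2, a TGF-beta ligand, at 0.238. The median was 0.94 over all tested genes. Amot had 19.5, 18.5 and 14.7 FPKM in SS18-SSX2 tumors and 8.46, 10.3 and 3.65 FPKM in SS18-SSX1 tumors, without overlap. Malat1 was closest to Osbpl6, a lipid-binding protein gene, at 0.172 and Gpc4, a glypican of the cell surface, at 0.201, with a median of 0.91 over all tested genes. Gpc4 had 43.5, 47.1 and 42.04 FPKM in SS18-SSX2 tumors and 80.0, 44.2 and 13.5 FPKM in SS18-SSX1 tumors, the same order within the SS18-SSX1 tumors as Malat1. Malat1 and Neat1 themselves were 0.64 apart. Gas5 was closest to Scoc (0.0703) and Kansl1l (0.0914), with a median of 0.53. Snhg11 was closest to 1700029J07Rik (0.0693) and Psd2 (0.0826), with a median of 0.56. Miat was closest to Acy1 (0.0738) and Pcolce (0.0828), also with a median of 0.56. Snhg11 and Miat, at 0.26, were the closest pair among the 5 RNAs. With 13873 profiles of 6 tumors each, some lie near any given one, so these distances are descriptions.

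Proliferation genes leaned the same way as Neat1. Summed over 6 of them the level was 187, 49.1 and 130 FPKM in SS18-SSX2 tumors and 58.0, 33.2 and 73.4 FPKM in SS18-SSX1 tumors, so unlike Neat1 the sums overlapped. Of the 6 genes 1 had no overlap, beside 4.97% of all tested genes with SS18-SSX2 higher. That gene, Aurka, had 13.7, 5.48 and 13.9 FPKM in SS18-SSX2 tumors and 4.33, 3.62 and 5.40 FPKM in SS18-SSX1 tumors (limma adjusted p = 0.844). All 6 estimates were above 0, none passed, none of the 6 genes was at 0 in any tumor, and their part in the Neat1 values was not tested.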

How the data were processed

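RNA of 6 snap-frozen tumors was extracted with Qiagen RNeasy kits and made into Ribo-Zero libraries, per the labels' protocols, which keeps RNAs without a poly(A) tail. Novoalign 2.08.03 and the build mm10 appear, with no role, per the submitters' processing notes. The authors deposited 1 table of FPKM values with 1 column per tumor. Neither counter, gene models, strand nor multi-mapping rules are stated.

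Identifiers were matched to GENCODE mouse release 21 (17029 of 17312 genes had a symbol). Read totals were worked out from the steps between low FPKM values of single-exon genes, and a member's reads from its FPKM, exon length and total. Between 76.0% and 82.0% of 400 low values per tumor were whole within 0.02 reads. Counting errors cover sampling of reads only.

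The test was limma 3.58.1 (R 4.3.3, eBayes with a trend) on log2(FPKM + 1) of all genes that reached 1 FPKM in 3 or more tumors, two-sided, Benjamini-Hochberg adjusted over 13873 genes, threshold 0.05. A pseudocount of 1 understates changes of low genes such as Miat. The ratio used an exact permutation test (Python 3.11.15, numpy 2.4.6, scipy 1.17.1). On simulated data with 200 changed genes in each of 5 runs of this comparison (13557 genes tested on average), limma called 2.02% of genes changed 2-fold, 48.8% at 4-fold and 75.5% at 8-fold, with 27 of 558 calls (4.84%) false.

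The members and gene lists were chosen with earlier results of these data known. Named genes are the members, up to 4 of each list by smallest p or largest mean, those that passed, overlapping and nearest genes (1 of them is not reported here), and 2 closest profiles per member. Other named genes (such as Ddx3y, Srsf2, Qk, Sf1, Snord47, Rbfox3, Elavl4, Tug1, Firre and Hotairm1) were chosen after their values were seen or for their known role. The list of imprinted lncRNAs also holds 4 coding genes (Dlk1, Igf2, Rtl1 and Gnas). Alternatives were other pseudocounts, filters, scalings and variance models, tumor number as a block, and tumors left out. The planned ratio of Gas5 to Snhg1 was not run, since Snhg1 has no row.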

Additional observations from a re-analysis of the deposited data

How the results depend on the processing

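None of the 5 RNAs passed under any of the 18 alternatives to the test (17 for Miat, which a minimum mean of 5 FPKM removed). The number of genes called over the whole table was 9, against 5 with a pseudocount of 0.1, 4 with the replicate block, 20 without both tumors numbered 2, and 3 to 11 when 1 tumor was left out (3 without SS18-SSX2 tumor 3). Neat1 kept its sign in all 18, with log2 fold changes of 0.80 to 1.63, unadjusted p-values of 0.00803 to 0.0607 and limma adjusted p-values of 0.449 to 1.00. It was lowest without SS18-SSX1 tumor 3. Groups that do not overlap stay so when a tumor is left out, so for Neat1 this tests nothing, and a second RNA joined it without SS18-SSX2 tumor 1 (Gas5) and without SS18-SSX1 tumor 1 (Snhg11). The count without overlap was then 1 to 2, in settings where 18.3% and 23.1% of tested genes did not overlap. The other 4 estimates changed sign somewhere. Malat1 ranged from -0.39 to 0.95 and Gas5 from -0.53 to 0.011 when 1 tumor was left out, Snhg11 from -0.20 to 0.41 and Miat from -0.22 to 0.36. Without both tumors numbered 2, Gas5 was at 0.030, Snhg11 at -0.37 and Miat at -0.33, and with quantile normalization Snhg11 was at -0.065. The cause was not tested. The log2 ratio of Neat1 to Malat1 was above 0 in its 10 alternatives, at 0.67 to 1.24, but with quantile normalization (0.70, exact permutation p = 0.6 over 20 relabelings) the genotypes no longer separated. With the replicate block, Neat1 was at 1.31 (SE 0.33, limma adjusted p = 0.597) and the ratio, whose difference of 1.04 the block leaves as it is by construction, had an exact permutation p of 0.25 over 8 relabelings, the smallest they can give. Deviations of same-numbered tumors correlated at 0.38, 0.31 and -0.28 for numbers 1, 2 and 3. Those of differently numbered tumors correlated at -0.44 to 0.23. The labels state no pairing, and whether the tumor numbers mark a shared factor was not tested.

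With 3 tumors a genotype, genes changed 2-fold were called in 2.02% of simulated cases, and those changed 4-fold in 48.8%. The changed genes were drawn at random from the tested genes, so these shares are averages over unlike genes. They do not give the share for a gene like Neat1, whose SD was larger than that of 91.3% of tested genes. Malat1 and Neat1 had 2246 reads or more in every tumor, and Miat had 143 to 296. Reads were not worked out for the snoRNA genes, where few stand behind most values. Short and long Neat1 isoforms, mature snoRNAs and retained introns of Gas5, and antisense reads at Kcnq1 were not separated.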
